A study of Mus musculus with 6 samples.

Results

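The osteoblast and bone matrix genes are 8 genes picked by symbol from the deposited expression table: Col1a1, Col1a2, Bglap, Sp7, Postn, Dmp1, Phex and Cdh11. All 8 were among the table's 14882 genes. The table holds 6 libraries of laser-microdissected hypertrophic zone, the layer of enlarged chondrocytes at the bone end of the growth plate, from the proximal tibia of C57BL/6 mice aged 7 days. Of these, 3 were wild type (WT) and 3 were homozygous for a loss of Adamts17 (Adamts17-/-), a secreted metalloprotease, and the labels call them littermates. All 6 had the same dissection and linear amplification of messenger RNA. The making of the Adamts17 allele and the number of animals behind each library are not stated, so p-values measure only the spread between these libraries. Values are RPKM, reads per kilobase of transcript relative to library depth, as scaled by the authors. Below, 3 values for a group are always those of replicates 1, 2 and 3 in this order.

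As background, osteoblasts build bone by secreting type I collagen, into which mineral is laid, and they form the spongy bone that begins directly below the hypertrophic zone. The transcription factors Runx2 and Sp7 drive cells into this lineage. Mature osteoblasts add osteocalcin to the matrix, and those that become buried turn into osteocytes, which make regulators of phosphate and mineral. Hypertrophic chondrocytes instead make type X collagen, and they too express part of this program late in life. In such bulk material, fewer cells of a type and less RNA per cell cannot be told apart.

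The type I collagen genes made up most of the group's reads. Together the 8 genes took 0.743%, 0.0507% and 0.235% of all read equivalents across WT. Across Adamts17-/- they took 0.323%, 2.04% and 0.0478%. Col1a1 and Col1a2 alone took 0.698%, 0.0442% and 0.232% across WT, against 0.319%, 2.02% and 0.0458% across Adamts17-/-, and the other 6 genes between 0.00198% and 0.0442%. For the 8 genes together, the highest and the lowest share both lay in the Adamts17-/- group, so the groups overlapped. For type I collagen alone the lowest share was that of WT replicate 2. None of the 8 genes passed the test between the groups.

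The libraries were shallow. Read equivalents on listed genes were 1662637, 722119 and 899162 across WT, against 882809, 2688295 and 595989 across Adamts17-/-. Listed genes at 0 numbered from 391 in WT replicate 1 to 3153 in Adamts17-/- replicate 3, the shallowest library. A read equivalent is the value times transcript length, divided by what 1 read is worth in that library, and need not be whole. The RPKM of all listed genes summed to 290367, 425973 and 551698 across WT, against 471381, 1091350 and 411363 across Adamts17-/-. A share of read equivalents does not depend on this scale, while RPKM does. The labelled tissue was checked by Col10a1, the type X collagen gene, which lay between 1437 and 13347 RPKM in all 6 libraries. Adamts17 itself had sums of 6.49 read equivalents in WT and 1.25 in Adamts17-/-, too few to check the genotype labels. WT replicate 1 stood apart by skeletal muscle genes, and Adamts17-/- replicate 2 by erythroid and neutrophil genes. These are given below with the markers of neighbouring tissues, and the values of single genes before that carry no separate remark.

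Col1a1 encodes the alpha 1 chain of type I collagen, the main protein of bone, tendon and skin. The table places it on chromosome 11, 94936270 to 94951856, plus strand (Entrez gene 12842), in a build that no source names. Its RPKM was 200.7, 38.1 and 79.2 across WT, against 220.5, 1565 and 18.7 across Adamts17-/-. Adamts17-/- replicate 2 was the highest library and replicate 3 of the same group the lowest, with the WT libraries between. The span of RPKM within Adamts17-/- was 83.7-fold, against 5.27-fold within WT. As a share of read equivalents, Col1a1 was at 0.162%, 0.0195% and 0.0354% across WT, against 0.121%, 0.574% and 0.0094% across Adamts17-/-. The log2 fold change, Adamts17-/- over WT, was 1.14 ± 1.31 (SE, 3 libraries each, limma adjusted p = 0.999). This fold change turned to -0.38 without Adamts17-/- replicate 2 and reached 2.78 without Adamts17-/- replicate 3.

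Col1a2 encodes the alpha 2 chain of the same collagen molecule (Entrez gene 12843, chromosome 6, 4505697 to 4541543, plus strand). Its RPKM was 606.7, 44.2 and 400.8 across WT, against 331.7, 3610 and 66.2 across Adamts17-/-. As for Col1a1, Adamts17-/- replicate 2 was the highest library, but the lowest was WT replicate 2. The log2 fold change came to 0.96 ± 1.25 (SE, 3 libraries each, limma adjusted p = 0.999), and it turned to -0.57 without Adamts17-/- replicate 2 and to -0.19 without WT replicate 2. These genes were well measured by count, with between 56.1 and 15424 read equivalents of Col1a1 and between 178.6 and 38954 of Col1a2 in each library.

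**Figure D1:**
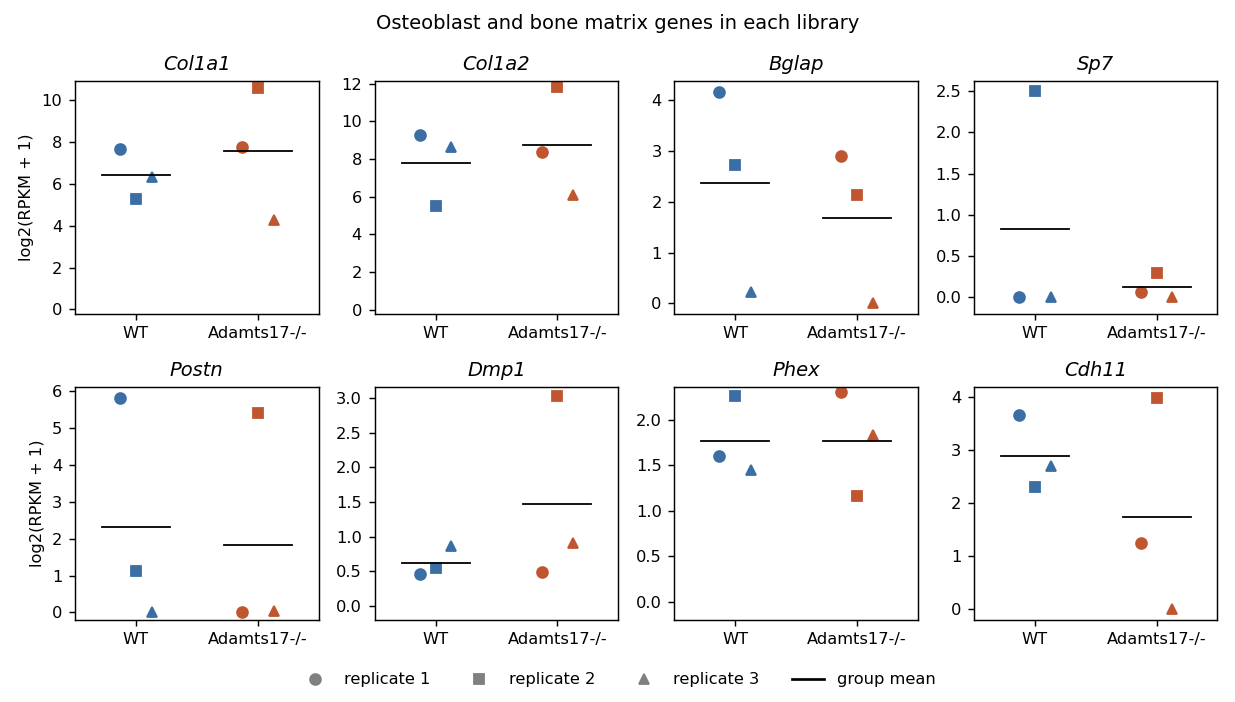
Level of each of the 8 genes as log2(RPKM + 1) on the vertical axis, with a separate range per panel, in the 3 WT (blue) and 3 Adamts17-/- (orange) libraries; the shape gives the replicate number and the line the group mean. In every panel the groups overlap, and Adamts17-/- replicate 2 (orange square) is the highest library on this RPKM scale for Col1a1, Col1a2, Dmp1 and Cdh11.

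The proportion of the chains varied from library to library. Per transcript length, the level of Col1a2 was 3.02, 1.16 and 5.06 times that of Col1a1 across WT, against 1.5, 2.31 and 3.54 times across Adamts17-/-. Col1a2 was thus the higher of the pair in all 6 libraries. The mean log2 ratio was 1.38 ± 1.08 for WT and 1.21 ± 0.62 for Adamts17-/- (SD over 3 libraries, exact two-sided permutation p = 0.8, where 0.1 is the smallest possible), and the difference of -0.18 turned to 0.30 without WT replicate 3. In the collagen helix the alpha 1 chain is known to be the more abundant. The table's transcript of Col1a1 is 4698 bp long, while the GENCODE M21 transcript of the same RefSeq accession has 5930 bp. For Col1a2 these lengths are 5143 and 5348 bp. The part of the missing length in this ratio was not tested.

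The ratio of Col1a1 to the hypertrophic marker Col10a1 does not depend on the scaling of the libraries, but it moves with both genes. Col10a1 was at 2218, 13347 and 5866 RPKM across WT, against 1437, 1507 and 4151 across Adamts17-/-. Its log2 fold change was -1.42 ± 0.88 (SE, 3 libraries each, limma adjusted p = 0.999). The level of Col1a1 relative to Col10a1 was 0.0905, 0.00285 and 0.0135 across WT, against 0.153, 1.04 and 0.00451 across Adamts17-/-. Only in Adamts17-/- replicate 2 was the collagen of bone as high per length as the collagen of hypertrophic cartilage, and in the other 5 libraries Col10a1 was the higher. Relative to Col2a1, the collagen of earlier cartilage, Col1a1 was at 0.757, 0.0314 and 0.141 across WT, against 1.49, 10.9 and 0.0418 across Adamts17-/-.

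Bglap encodes osteocalcin, a small mineral-binding protein made by mature osteoblasts (Entrez gene 12096, chromosome 3, 88383495 to 88384466, minus strand). In the mouse it lies beside near-identical copies, Bglap2 and Bglap3. The coding sequences of Bglap and Bglap2 are shown because they decide which copy a read can be assigned to. They come from GENCODE M21, build GRCm38, minus strand, at chr3:88383635-88384415 and chr3:88377870-88378650 with introns removed. Capitals mark the 4 of 288 bases that differ.
Bglap: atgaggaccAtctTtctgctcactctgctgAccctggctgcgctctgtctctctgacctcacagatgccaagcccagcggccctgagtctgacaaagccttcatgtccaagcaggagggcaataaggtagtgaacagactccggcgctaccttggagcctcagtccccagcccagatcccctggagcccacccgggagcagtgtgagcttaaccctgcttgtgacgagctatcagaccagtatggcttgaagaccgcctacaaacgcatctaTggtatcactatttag
Bglap2: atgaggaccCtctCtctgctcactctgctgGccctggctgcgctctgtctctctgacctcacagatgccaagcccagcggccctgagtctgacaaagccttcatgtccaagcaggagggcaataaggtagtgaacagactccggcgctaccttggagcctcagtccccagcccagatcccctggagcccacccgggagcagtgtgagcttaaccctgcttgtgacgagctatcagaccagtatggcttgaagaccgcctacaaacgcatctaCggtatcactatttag

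The sequences are 98.6% identical, with a run of 241 bases in which they do not differ. Of the 32-base words in the Bglap transcript of GENCODE M21, 80.2% also occur in transcripts of other genes, all of them its copies. That transcript is 440 bp long and the table's is 685 bp, so the share in the transcript that was measured can differ. For Col1a1, Col1a2, Sp7, Postn, Dmp1 and Phex this share was at most 1.64%, and for Cdh11 it was 7.18%. Values of Bglap and of Bglap2 alone are therefore uncertain. Bglap3, whose coding sequence differs from that of Bglap at 13 bases, had no row under that symbol in the deposited expression table and so was not analysed.

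Osteocalcin was highest in another library than the collagens. Bglap was at 16.9, 5.57 and 0.171 RPKM across WT, against 6.39, 3.39 and 0 across Adamts17-/-. These are 33.0, 3.0 and 0.1 read equivalents across WT, against 4.50, 4.88 and 0 across Adamts17-/-. WT replicate 1 was the highest library, and the third replicate of each group was at or near 0. With 3 read equivalents as the limit that a count of 0 allows, Adamts17-/- replicate 3 could hold up to 6.87 RPKM, which is above the value of 4 of the other libraries. Bglap2 was at 22.7, 8.11 and 0 RPKM across WT, against 21.7, 1.61 and 0 across Adamts17-/-. Its values may not be independent of those of Bglap, since 95.0% of its 32-base words also occur in its copies. Summed over both copies, osteocalcin had 63.5, 6.0 and 0.1 read equivalents across WT, against 15, 6.47 and 0 across Adamts17-/-. How reads shared by the copies were counted is not stated, so the sum does not settle their assignment. The log2 fold change of Bglap was -0.69 ± 1.52 (SE, 3 libraries each, limma adjusted p = 0.999), and without WT replicate 1 it was 0.20. In Adamts17-/- replicate 2, with the highest type I collagen of all libraries, osteocalcin of both copies made up 0.000241% of read equivalents, against 0.00382% in WT replicate 1.

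Sp7, or osterix, is the transcription factor without which osteoblasts do not form (Entrez gene 170574, chromosome 15, 102357177 to 102366271, minus strand). It was listed at 0, 4.64 and 0 RPKM across WT, against 0.0426, 0.230 and 0 across Adamts17-/-. Only WT replicate 2, with 8.33 read equivalents, was above 3 read equivalents, and that library had the lowest Col1a2. The gene did not pass the filter on low values, and without a filter its log2 fold change came to -0.71 ± 0.56 (SE, 3 libraries each, limma adjusted p = 1.0). Sp7 was not detectable at this depth in the other 5 libraries, where 3 read equivalents correspond to 0.460 to 2.06 RPKM. The table's Sp7 transcript is 2284 bp, against 3097 bp in GENCODE M21.

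Postn and Cdh11 are also made by periosteal cells and fibroblasts. Postn encodes periostin, a matrix protein of periosteum and tendon (Entrez gene 50706, chromosome 3, 54361107 to 54391041, plus strand). It was at 55.4, 1.19 and 0 RPKM across WT, against 0, 41.5 and 0.0280 across Adamts17-/-. A single library of each group held nearly all of it, with 522.05 read equivalents in WT replicate 1 and 287.05 in Adamts17-/- replicate 2, and at most 3.09 elsewhere. The log2 fold change came to -0.50 ± 1.71 (SE, 3 libraries each, limma adjusted p = 0.999). It moved to -2.30 when Adamts17-/- replicate 2 was left out and to 1.25 when WT replicate 1 was.

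Cdh11 encodes cadherin 11, the cell adhesion molecule of osteoblasts and mesenchymal cells (Entrez gene 12552, chromosome 8, 102632995 to 102785111, minus strand). It was at 11.7, 3.93 and 5.55 RPKM across WT, against 1.39, 14.9 and 0 across Adamts17-/-. In RPKM, the low values of Adamts17-/- replicates 1 and 3 lay below all WT libraries and that of replicate 2 above them. As a share of read equivalents, Cdh11 was instead highest in WT replicate 1, at 0.0085%, against 0.00491% in Adamts17-/- replicate 2. Cdh11 had a log2 fold change of -1.14 ± 1.59 (SE, 3 libraries each, limma adjusted p = 0.999), and was the only 1 of the 8 whose sign did not turn under any of the alternatives tried, running from -2.30 to -0.27. Col3a1, a collagen of fibrous tissue and not of mature bone, was at 100.7, 3.44 and 1.14 RPKM across WT, against 0.372, 29.9 and 0.0403 across Adamts17-/-, so the libraries with Postn also had the most Col3a1.

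The osteocyte genes of the group were low. Dmp1, an acidic protein that seeds mineral (Entrez gene 13406, chromosome 5, 104202617 to 104214102, plus strand), was at 0.371, 0.469 and 0.829 RPKM across WT, against 0.411, 7.16 and 0.877 across Adamts17-/-. Only Adamts17-/- replicate 2, with 41.5 read equivalents, had more than 3. Dmp1 did not pass the filter, and without a filter its log2 fold change came to 0.85 ± 1.05 (SE, 3 libraries each, limma adjusted p = 1.0), or 0.076 without Adamts17-/- replicate 2. Phex encodes a membrane peptidase that restrains the phosphate-lowering hormone Fgf23 (Entrez gene 18675, chromosome X, 157162075 to 157415286, minus strand). It was at 2.03, 3.79 and 1.73 RPKM across WT, against 3.93, 1.24 and 2.55 across Adamts17-/-. Phex was the steadiest of the 8, with 9.29 to 36.3 read equivalents in every library, and its lowest value was in the library with the most type I collagen. Its log2 fold change came to -0.0043 ± 1.29 (SE, 3 libraries each, limma adjusted p = 0.999).

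Of the 8 genes, 6 passed the filter of at least 1 RPKM in at least 3 libraries, and 0 were called higher and 0 lower. The background over all 9128 genes tested was the same, with 0.0% called in each direction, and 229 genes (2.51%) had an unadjusted p under 0.05, none of them among the 8. Of the 8, 4 had their lowest value, ties counted, in Adamts17-/- replicate 3, beside 25.5% of all tested genes. For all 8 genes the groups overlapped, while 6.63% of all tested genes had groups that did not overlap. The median log2 fold change of the 6 that passed was -0.25, beside 0.077 over all genes tested, where the median SE was 1.48. Over all genes tested, 52.8% had a positive log2 fold change. Of the 8, 3 had a positive and 5 a negative log2 fold change. Both counts moved when libraries were left out, to 5 positive and 3 negative without WT replicate 1 or without Adamts17-/- replicate 3, and to 2 and 6 without Adamts17-/- replicate 2. Without both WT replicate 1 and Adamts17-/- replicate 2, a fit chosen after seeing the data, they were again 3 and 5, with log2 fold changes of 0.24 for Col1a1, 0.15 for Col1a2, -0.029 for Bglap and -0.55 for Postn.

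**Figure D2:**
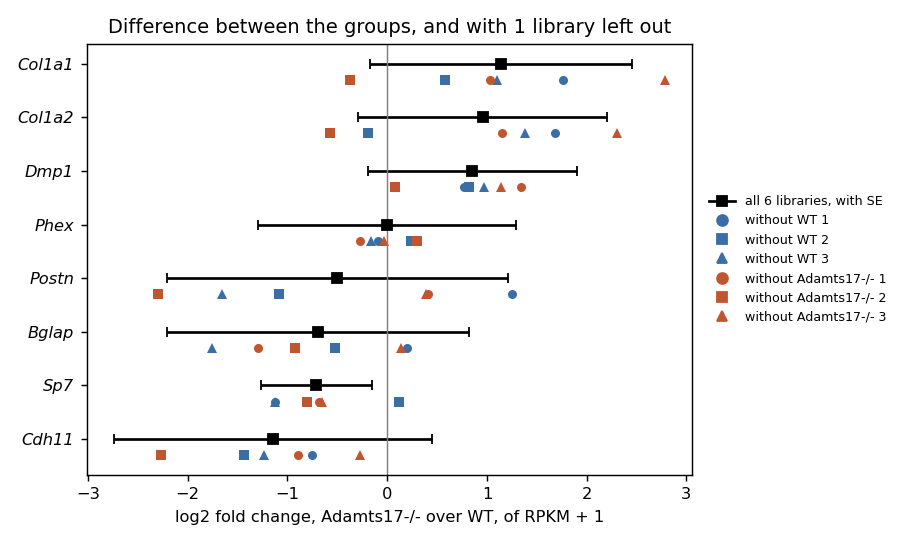
Log2 fold change of RPKM + 1, Adamts17-/- over WT, on the horizontal axis for the 8 genes; black squares are the fit to all 6 libraries with SE (Sp7 and Dmp1 from the fit without a filter), and coloured points below them the fits with 1 library left out. Leaving out Adamts17-/- replicate 2 (orange square) moves Col1a1 from 1.14 to -0.38, and only Cdh11 and Dmp1 keep their points on 1 side of 0.

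Among themselves the 8 genes fell into different patterns over the libraries. Likeness was measured as the root mean square difference of log2(RPKM + 1), each gene centred on its own mean over the 6 libraries. Col1a1 and Col1a2 were the most alike of all 28 pairs, at 0.714. Sp7 and Phex came next at 0.798, but both vary little on this scale because they are low, so a small difference says less for them. Bglap lay at 1.91 from Col1a1 and 2.25 from Col1a2, and Postn at 1.86 and 1.91. The median difference between Col1a1 and the 6546 genes with a mean of at least 5 RPKM was 2.31. By this measure 40 genes were closer to Col1a1 than Col1a2 was, the first being Ankrd13a (0.381), Gpbp1 (0.416) and Wdr83os (0.421). The genes most like Bglap were Anxa3 (0.296), Tsc22d3 (0.413) and Slc31a1 (0.525). With 6 libraries, small differences can occur among so many genes.

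**Figure D3:**
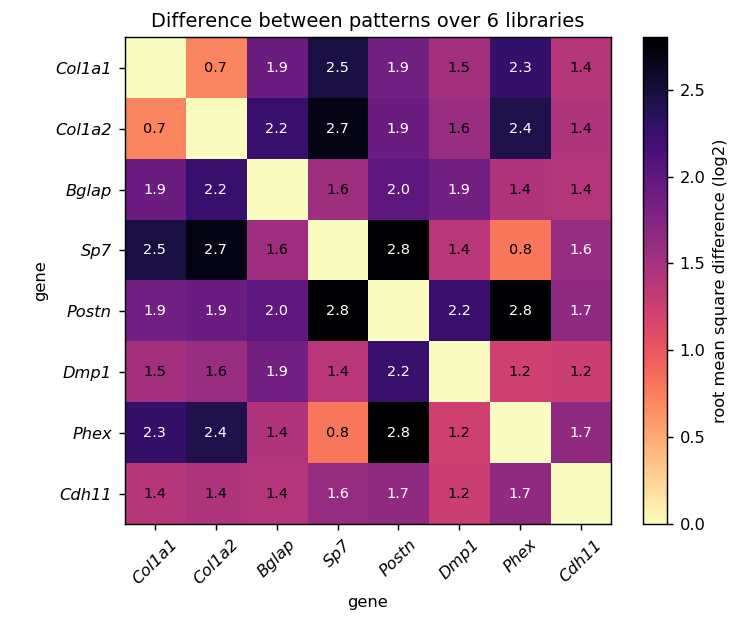
Root mean square difference (log2) between the centred patterns of each pair of the 8 genes over the 6 libraries, where a small number means a similar pattern. Col1a1 and Col1a2 stand out at 0.7, while Sp7 and Phex, both low, are at 0.8.

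None of the other tested genes listed for the osteoblast lineage was called either. Hypertrophic chondrocytes too express part of this program, so these lists do not mark osteoblasts alone. Of 7 tested transcription factors of the lineage, 3 had a positive and 4 a negative log2 fold change, with a median of -0.23, and 0 were called. Their mean log2(RPKM + 1) was lowest in Adamts17-/- replicate 3, at 2.32, as was that of the 8 genes, at 1.64. That library was also the shallowest, with the most genes at 0, and the part of depth in these means was not tested. Dlx5, a homeobox factor upstream of Sp7, was at 4.96, 11.7 and 1.37 RPKM across WT, against 38.8, 34.5 and 0 across Adamts17-/-. Atf4, which controls amino acid supply and osteocalcin in osteoblasts, had a log2 fold change of 0.50 ± 1.19 (SE) and Twist1, an inhibitor of Runx2, -0.57 ± 1.20.

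Other bone matrix proteins had 3 positive and 8 negative log2 fold changes among 11 tested, with a median of -0.62, and 0 were called. Ifitm5, a membrane protein of mineralising osteoblasts, was at 0.987, 0 and 112 RPKM across WT, against 89.2, 82.0 and 44.3 across Adamts17-/- (log2 fold change 3.52 ± 1.57, SE, limma adjusted p = 0.999). Its highest library was WT replicate 3, so the groups overlapped. Ibsp, bone sialoprotein, was at 35.8, 51.5 and 2081 RPKM across WT, against 230.02, 2719 and 78.6 across Adamts17-/-. Ibsp and Col1a2 were both high in Adamts17-/- replicate 2, while WT replicate 3, with 2081 RPKM of Ibsp, had 0.1 read equivalents of osteocalcin. Ogn, a small proteoglycan of bone and fibrous tissue, had a log2 fold change of -2.24 ± 1.23 (SE) and Col5a2, a collagen that joins type I fibrils, -1.73 ± 1.51.

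Genes that process type I collagen had 4 positive and 13 negative log2 fold changes among 17 tested, with a median of -0.73, and 0 were called. P3h1, which hydroxylates proline in the collagen chains, was at 7.81, 2.27 and 62.0 RPKM across WT, against 1.45, 0.142 and 0.0233 across Adamts17-/-. The groups did not overlap, with every Adamts17-/- library below the lowest WT library (log2 fold change -3.10 ± 1.52, SE, limma adjusted p = 0.999), as for 3.54% of all tested genes. These are 75.05, 6.0 and 178.5 read equivalents across WT, against 5.0, 1.0 and 0.05 across Adamts17-/-. The order thus rests on 5.0 against 6.0 read equivalents. In the library with the most type I collagen, 0.142 RPKM of P3h1 lay below the limit of 3 read equivalents, which is 0.425 RPKM there. Plod1, a lysyl hydroxylase, had a log2 fold change of -2.32 ± 1.39 (SE), Lox, which crosslinks collagen, 1.29 ± 1.56 and Fkbp10, a chaperone of the collagen chains, 1.03 ± 1.35.

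Among genes of the osteoblast surface, signalling and mineral enzymes, 5 had a positive and 6 a negative log2 fold change of 11 tested (median -0.079), and of 6 tested osteocyte genes 3 and 3 (median 0.34). None was called. Fgfr1, a fibroblast growth factor receptor counted in both lists, was at 12.7, 4.41 and 13.7 RPKM across WT, against 31.4, 19.0 and 35.9 across Adamts17-/-, higher in all 3 Adamts17-/- libraries (1.48 ± 1.41, SE, limma adjusted p = 0.999), where 3.09% of tested genes had such an order. Enpp1, which makes the mineral inhibitor pyrophosphate, was at -2.18 ± 1.38 (SE) and lower in all 3 Adamts17-/- libraries, an order found in 3.54% of tested genes. Slc20a2, a phosphate carrier, was at -1.74 ± 1.03 and Smpd3, a sphingomyelinase needed for mineral, at 0.82 ± 1.56. Gja1, the gap junction protein of bone cells, was at 64.5, 49.6 and 92.1 RPKM across WT, against 41.1, 17.8 and 34.4 across Adamts17-/-, also lower in all 3 Adamts17-/- libraries, as for those 3.54% (-1.15 ± 1.25, SE, limma adjusted p = 0.999). Cd44, a hyaluronan receptor, was at 1.78 ± 1.52 (SE) and Ptprz1, a receptor phosphatase, at -0.57 ± 1.49.

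Markers of neighbouring tissues moved with these values in single libraries. Adamts17-/- replicate 2 had the highest RPKM of Col1a1, Col1a2, Dmp1 and Cdh11, though not the highest share of read equivalents for Cdh11. It had 68434 RPKM of Hba-a1, an alpha globin, and 20184 of S100a8, a neutrophil protein. In the other 5 libraries Hba-a1 lay between 821.4 and 16922 RPKM and S100a8 between 14.9 and 597.2. The 12 neutrophil and myeloid genes summed to 68274 RPKM there, against 17.4 to 2264 in WT and 86.2 to 2534 in the rest of Adamts17-/-, and 0 of the 12 were at 0. The 11 erythroid genes summed to 264419 RPKM there, against 3231 to 69748 in WT. Of all tested genes 26.7% had their highest value in this library, beside 4 of these 8. The part of blood and marrow cells in the collagen values was not tested.

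WT replicate 1, with the most Bglap and Postn, had 3596 RPKM of Myl1, a fast muscle myosin chain, which lay between 0 and 132.6 elsewhere. Its 13 muscle genes summed to 16639 RPKM, against 265.3 to 1537 in the other WT libraries and 363.5 to 562.4 in Adamts17-/-. It also had the highest sum of the 12 endothelial genes, at 444.4 RPKM against 67.95 to 186.2 elsewhere, and of the 17 genes of periosteum, perichondrium and fibroblasts, at 502.02 RPKM against 94.4 to 467.01. The part of these tissues in the values was not tested. Dcn, 1 of these 17 genes, was at 0 in WT replicates 2 and 3 and Adamts17-/- replicate 3. Postn was at most 1.19 RPKM in these libraries, but it was also at 0 in Adamts17-/- replicate 1, where Dcn was not. In WT replicate 3 the 17 genes still summed to 467.01 RPKM.

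Osteoclast genes, which mark the border at which cartilage is removed, had another pattern. Their sum over 12 genes was 4517, 258.4 and 4680 RPKM across WT, against 233.6, 581.5 and 3735 across Adamts17-/-. The tartrate-resistant phosphatase gene Acp5 was at 2454 RPKM in Adamts17-/- replicate 3, which had the least Col1a1, and at 171.7 in replicate 2, which had the most. Ctsk, the collagen-cutting protease of osteoclasts, was at 758.5 and 78.0 RPKM in these libraries. High osteoclast genes thus stood beside low type I collagen in Adamts17-/- replicate 3, while WT replicate 1 was high in both. Of the osteoclast genes 1 had a positive and 8 a negative log2 fold change, and none of the 12 lists held a called gene.

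The tested endothelial genes had 3 positive and 9 negative log2 fold changes, and those of periosteum and fibroblasts 3 and 10. Muscle genes had 0 and 9, erythroid genes 9 and 0, and neutrophil and myeloid genes 9 and 1. Over all tested genes 52.8% were positive. Genes of a list can move together with a single library, so such counts are not counts of independent genes. For the markers of hypertrophic and other cartilage, 1 was positive and 10 negative, with a median of -1.41, and their sum ran from 4086 to 16308 RPKM in WT and from 1860 to 5243 in Adamts17-/-. Acan, the aggrecan gene, was at 77.05, 400.01 and 138.9 RPKM across WT, against 53.8, 50.98 and 189.4 across Adamts17-/-. Ucma, a gene of earlier chondrocytes, was at 0 in 5 of the 6 libraries, but at most 2 of the 12 markers were at 0 in any library. In Adamts17-/- replicate 2 a high level of Col1a1 stood beside a low level of Acan, and in WT replicate 2 a low level of Col1a1 beside the highest levels of Acan and Col10a1.

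**Figure D4:**
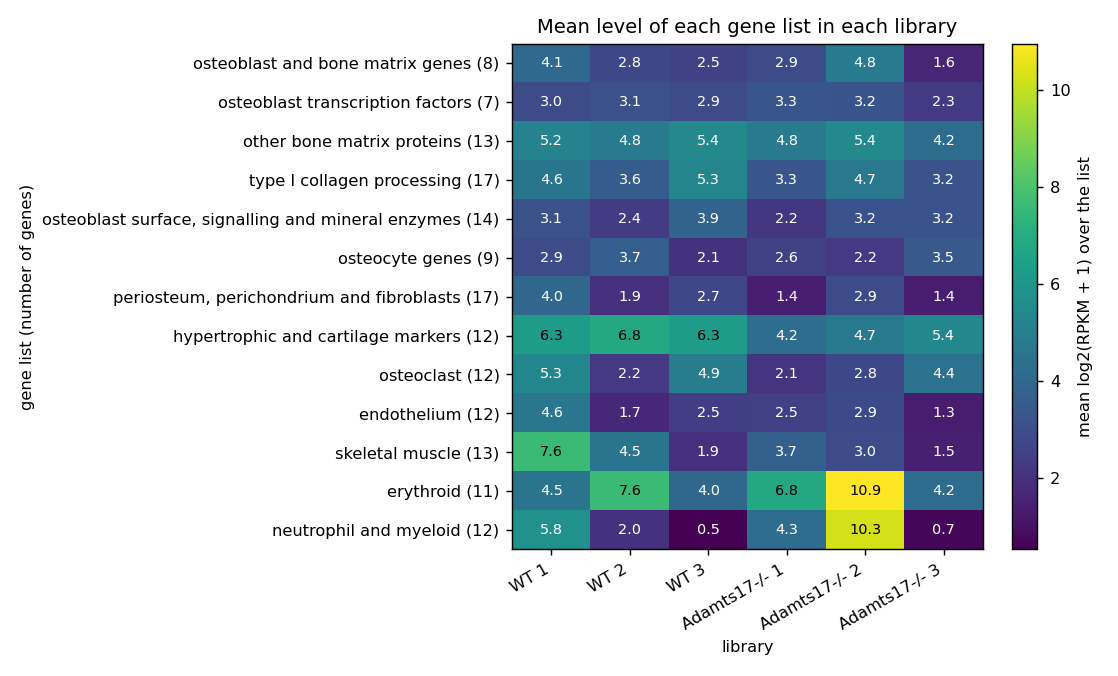
Mean log2(RPKM + 1) of each gene list (rows, with the number of genes) in each of the 6 libraries (columns); brighter cells are higher. The 8 osteoblast and bone matrix genes are highest in Adamts17-/- replicate 2 (4.8), where erythroid (10.9) and neutrophil genes (10.3) are highest too, and lowest in Adamts17-/- replicate 3 (1.6). Adamts17-/- replicate 2 is also the deepest library and Adamts17-/- replicate 3 the shallowest.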

How the data were processed

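RNA from microdissected hypertrophic zones was isolated with the PicoPure kit, amplified with RiboAmp HS PLUS and made into TruSeq libraries, per the labels' protocols. The authors deposited 1 table of 14882 genes, and its name refers to scaling by TMM, the trimmed mean of M-values. The unit is not named, and the deposited values were taken for RPKM since in each library value times transcript length fell on multiples and simple fractions of 1 step. Of values from 1 to 20 read equivalents, 24.2% to 34.8% were whole within 0.01, so no count model was used. The aligner, the counter, the build and how multiply mapping reads were counted are not stated in the sources used here.

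Columns were matched by the sample descriptions, and groups and replicate numbers came from the titles. The scale of analysis was log2(RPKM + 1), for genes with at least 1 RPKM in at least 3 libraries, which understates the fold change of low genes. The groups were compared over all genes with limma 3.58.1 in R 4.3.3 (two-sided moderated test with a trend by level, Benjamini-Hochberg threshold 0.05), checked on simulated data. Limits given as 3 read equivalents cover counting error only. Python 3.11.15 was used for the rest. Members and lists were chosen with earlier results of these data known. Of 164 listed symbols 154 were matched, older ones through RefSeq synonyms. Named in full were the 8 genes and Bglap2, from each of the 5 osteoblast lists up to 2 genes per direction with the largest fold change, 9 fixed tissue markers and the 3 genes most like Col1a1 and Bglap. A gene that this rule names is not reported here. Alternatives were other pseudocounts, filters and scalings, weights per library, leaving out each library, and a replicate block.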

Additional observations from a re-analysis of the deposited data

How the results depend on the processing

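None of the 8 genes passed the test under any alternative. The number of genes called higher was 0 and called lower 0, except for 1 called lower with library weights and 0 to 5 called higher with 1 library left out. Genes at an unadjusted p under 0.05 numbered 229, and became 135 with a minimum of 5 RPKM, 799 with library weights, 141 without both WT replicate 1 and Adamts17-/- replicate 2 and 214 to 376 with 1 library left out. The 3 positive and 5 negative genes became 2 to 5 positive and 3 to 6 negative with 1 library left out, and 2 negative with the minimum of 5 RPKM, where fewer genes were tested. The median log2 fold change of the 8 ran from -0.69 to 0.48. Signs turned for Col1a1 (-0.38 to 2.78 with 1 library left out), Col1a2 (-0.57 to 2.30, and -0.36 with library weights), Bglap (-1.76 to 0.20), Sp7 (-1.13 to 0.12, and -1.22 without both WT replicate 1 and Adamts17-/- replicate 2), Postn (-2.30 to 1.25, and -3.85 with library weights) and Phex (-0.27 to 0.30). Phex was also at 0.0058 with a pseudocount of 4, 0.17 with quantile normalization, 0.32 under library weights and 0.21 with those 2 libraries left out. In that last fit Dmp1 was at -0.0098, and with 1 library left out it ran from 0.076 to 1.34. The log2 ratio of Col1a2 to Col1a1 differed by -0.76 to 0.30 with 1 library left out. Beyond the library left out, the cause was not tested. Upper-quartile scaling moved the median of all genes by -0.23. A replicate block by title number gave 0 called genes in either direction, 171 genes at an unadjusted p under 0.05, and Col1a1 stayed at 1.14. Deviations from the group means correlated between same-numbered libraries at -0.0075, -0.35 and -0.10, so no pairing by number was seen. With 3 libraries per group, in which single libraries stood apart, these values cannot exclude a pairing. Counts were few for Sp7, Dmp1, Bglap and Postn, which had at most 3 read equivalents in 3 or more libraries each. For Postn, 3 read equivalents correspond to at most 1.43 RPKM in any library. The part of depth in these low values was not tested.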
